A study of Mus musculus with 6 samples.

Results

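Capillary endothelium takes up lipid and lets fluid and solutes through, and 7 genes with known parts in these tasks were followed here. Plvap encodes the protein of the diaphragms that span endothelial fenestrae and caveolae. Gpihbp1 encodes the capillary protein that binds lipoprotein lipase, the product of Lpl, carries it across the endothelial cell and holds it at the lumen, where the enzyme releases fatty acids from triglyceride-rich lipoproteins. Cd36 encodes a scavenger receptor that facilitates fatty acid uptake, and Fabp4 and Fabp5 encode small cytosolic proteins that bind fatty acids. Ehd3 encodes an EH-domain protein of endosomal recycling that is known as a marker of glomerular endothelium in the mouse kidney. The 7 symbols were looked up among 31053 genes, and each was found once in both tissues. They were read in endothelial cells, taken as cells with at least 3 UMIs (unique molecular identifiers, which count captured RNA molecules) of Pecam1, Cdh5 and Emcn together and no Ptprc UMI. This gate held 3418 of 24212 kept kidney cells and 1342 of 17562 kept tumor cells.

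The kidneys came from male C57BL/6 mice of 12 weeks. The mammary tumors came from female MMTV-PyMT mice of 10 weeks, which express the polyoma middle T antigen in the mammary epithelium from a viral promoter. Minced tissue was digested with type I collagenase, either for 60 min in a conventional control or on a microfluidic platform. The platform eluted cells at a 15 min and, from the same tissue, at a later 60 min time point, called the 15 min and the 60 min interval. Live cells were sorted and captured in droplets. With 1 library per condition in each tissue there was nothing to estimate replicate error from, and differences are given without a test. By the study's methods, control and platform libraries of a tissue came from the same mouse, so that each tissue stands for 1 animal. The intervals given are 95% intervals for counting error only, exact Poisson for a level and exact conditional for a ratio.

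All levels are in CPM, the UMIs of a gene per 1000000 UMIs, summed over all cells of a gate. The endothelial sums held 1587160 to 10148398 UMIs in kidney (568, 393 and 2457 cells in the control, the 15 min interval and the 60 min interval) and 1828587 to 6698126 UMIs in the tumor (302, 257 and 783 cells). Endothelial cells made up 9.65, 4.68 and 24.7% of the kept kidney cells and 5.26, 4.43 and 13.0% of the kept tumor cells in that order. Cell barcodes shared between 2 libraries of a tissue were at most 1.75% of the smaller library, and 1 such barcode was endothelial in both. The gate matched its name: 8 endothelial genes outside it (Kdr, Flt1, Tie1, Tek, Egfl7, Esam, Cldn5 and Eng) were at least 217 times the proximal tubule level in every kidney library and at least 289 times the epithelial level in every tumor library. Proximal tubule genes were also found in the kidney gate, with the 3 markers together at 131, 501 and 183 CPM in the control, the 15 min and the 60 min library, and epithelial markers in the tumor gate, at 767, 268 and 344 CPM.

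Fabp4 and Plvap were the most abundant of the 7 transcripts in endothelial cells of both tissues. Kidney endothelial cells held Fabp4 at 4895 CPM (control), 4480.3 CPM (15 min) and 5188 CPM (60 min), and Plvap at 3466, 3788 and 3671 CPM. Tumor endothelial cells held Fabp4 at 2731, 2926 and 3738 CPM and Plvap at 1669, 1739 and 2018 CPM. No tumor library reached the lowest kidney library for either gene. Counts at the 3′ end carry no factor for transcript length, although capture can still differ between genes.

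Gpihbp1 went the other way. Its level was 576, 834 and 664 CPM in kidney and 1172, 1439.7 and 1166 CPM in tumor endothelial cells, so that every tumor library lay above every kidney library. Ehd3 stood at 373, 422 and 349 CPM in kidney and at 60.7, 87.5 and 68.5 CPM in the tumor. Fabp5 was at 275, 312 and 279 CPM in kidney and at 281, 334 and 395 CPM in the tumor, and the tissues overlapped. Cd36 measured 175, 161 and 272 CPM in kidney and 143, 75.4 and 123 CPM in the tumor, without overlap. Lpl was the rarest, with 24.0, 53.6 and 42.3 CPM in kidney (58, 85 and 429 UMIs) and 1.64, 1.01 and 2.69 CPM in the tumor (3, 2 and 18 UMIs).

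The order from Fabp4 through Plvap, Gpihbp1, Ehd3, Fabp5 and Cd36 to Lpl held in kidney without overlap of neighbours across the 3 libraries, although the highest Cd36 value (272 CPM) and the lowest Fabp5 value (275 CPM) nearly met. In the tumor the order was Fabp4, Plvap, Gpihbp1 and Fabp5, then Cd36 and Ehd3, whose ranges overlapped, and last Lpl.

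**Figure D1:**
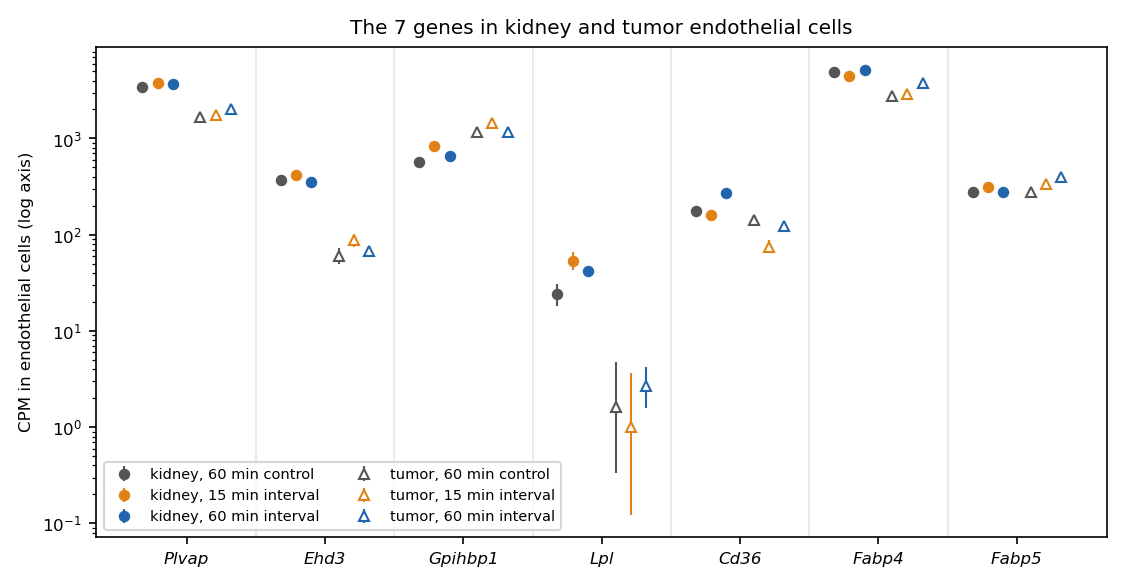
Level of each gene (CPM, log axis) in endothelial cells of 6 libraries. Filled circles are kidney, open triangles tumor, colours mark the condition, and bars are 95% Poisson intervals for counting error. Ehd3 and Lpl are the genes with the widest gap between the tissues, and Gpihbp1 is higher in the tumor.

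How the tissues differed was read at matched conditions. Kidney and tumor matrices had been joined separately, and tissue cannot be told apart from strain, sex and age. Of 9531 genes with at least 20 UMIs in kidney and tumor together at every condition, 15.3% differed at least 2-fold in 1 direction at all 3 conditions. Of the 7 genes 2 did so, both higher in kidney, and of these Lpl met the minimum only through its kidney UMIs. Ehd3 was 6.14 times (95% interval 5.04 to 7.55) the tumor level in the controls, 4.82 times (4.07 to 5.73) at 15 min and 5.09 times (4.62 to 5.62) at 60 min. Lpl was 14.6 times (4.77 to 73.0), 53.3 times (14.3 to 447) and 15.7 times (9.83 to 26.8) the tumor level, on the few tumor UMIs given above. The Lpl difference could not be called once cells carrying another type's markers were left out, because the 15 min libraries then held 15 and 1 UMIs, under the minimum of 20 for both. The log2 ratios were then 3.94, 4.30 and 2.96, still past 2-fold, so that the UMI minimum and not the size ended the call and left Ehd3. Kidney endothelial Lpl was then at 2.37, 1.90 and 4.99% of the proximal tubule level. For 7 proximal tubule genes that share was 1.59 to 2.99, 1.07 to 3.51 and 1.55 to 3.43%. Proximal tubule cells held Lpl at 400.4 to 591 CPM, and tumor epithelial cells at 2.17 to 7.04 CPM. Tubule RNA as a source of the Lpl difference was not tested.

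Plvap was 2.08 and 2.18 times the tumor level in the control and the 15 min library but 1.82 times at 60 min, short of the 2-fold line. Gpihbp1 was 2-fold apart only in the controls, where kidney stood at 0.491 times (0.459 to 0.526) the tumor level, against 0.579 at 15 min and 0.570 at 60 min. Per Plvap UMI, endothelial cells held 0.166, 0.220 and 0.181 Gpihbp1 UMIs in kidney and 0.702, 0.828 and 0.578 in the tumor. The ratio of the lipase anchor to the diaphragm protein therefore differed between the tissues by more than it differed among the libraries of either. For Cd36 the kidney level was 1.22, 2.14 and 2.21 times and for Fabp4 1.79, 1.53 and 1.39 times the tumor level, while Fabp5 ranged from 0.977 in the controls to 0.707 at 60 min. For Cd36 and Fabp5 the direction changed when the whole proximal tubule and epithelial levels were subtracted. Cd36 was then lower in kidney in the control and at 15 min (log2 -0.99 and -2.39). Fabp5 was then higher in kidney at all 3 conditions (log2 1.23, 0.46 and 0.21). In the gates, 7 tubule genes stood at only 2.84 to 12.3% of their tubule level, and 6 epithelial genes at 1.91 to 8.89% of their epithelial level. The subtraction thus took out more than those shares, and a smaller one was not tested. The median of all genes was 0.12 higher in kidney on the log2 scale, and taking out the median shift at each condition turned none of the 7 genes.

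The next question was which of these genes belonged to endothelial cells. Other cells were gated on at least 3 UMIs of their own markers, and types of at least 20 cells in a library entered. In kidney, 5.32% of 7667 genes, and 5 of the 7 followed here, were at least 2-fold higher in endothelial cells than in every other gated type in all 3 libraries. These were Plvap, Ehd3, Gpihbp1, Fabp4 and Fabp5. In the tumor 5.35% of 7518 genes passed, and 4 of the 6 genes with enough UMIs, namely Plvap, Gpihbp1, Cd36 and Fabp4. These were genes known from endothelium, so that their number is a description of the list.

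For Plvap, the closest other kidney type held 47.4 CPM in the control (stromal cells), 14.5 CPM at 15 min (B lymphocytes) and 196 CPM at 60 min (granulocytes). For Gpihbp1 the closest kidney type held 2.27, 0.216 and 39.3 CPM and the closest tumor type 13.7, 0.941 and 16.7 CPM. Macrophages of the 60 min kidney library held 68.0 CPM of Plvap, against 1.87 CPM in the control and 1 UMI at 15 min. In those macrophages 2.08 Fabp4 UMIs and 0.168 Gpihbp1 UMIs were found per Plvap UMI, beside 1.41 and 0.181 in the endothelial cells of the same library. RNA released from endothelial cells was not tested as a source.

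Shares of cells gave the same picture. Plvap was found in 97.0, 99.0 and 97.9% of kidney endothelial cells (median depths 4167.5, 3862 and 3873 UMIs) and in 0.492, 0.551 and 3.08% of proximal tubule cells (6217, 7254 and 6382.5 UMIs). With each cell thinned to 1000 UMIs, which left out 12, 4 and 32 endothelial cells, the endothelial shares were 89.7, 93.8 and 89.9% for Plvap and 28.4, 27.0 and 27.4% for Ehd3. Gpihbp1 stood at 32.9, 45.5 and 36.4% after thinning, against 54.6, 67.7 and 58.7% of unthinned cells. In tumor endothelial cells thinned in the same way (2 control cells left out) Plvap was found in 67.0, 82.1 and 74.5%, Gpihbp1 in 52.7, 61.9 and 55.4% and Ehd3 in 5.33, 7.39 and 5.24%. Tumor epithelial cells, thinned alike, held Ehd3 in 1.53, 2.21 and 2.02% and Gpihbp1 in 0.120, 0.0773 and 0.121%.

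Ehd3 did not stand clear of every other type in the tumor. T lymphocytes held 32.7, 41.5 and 39.2 CPM there, about the level in kidney T lymphocytes (36.0, 42.1 and 41.4 CPM). Kidney T lymphocytes of the 15 min library held 27 Ehd3 UMIs beside 1 Plvap UMI, an order opposite to that of endothelial cells. Tumor epithelial cells held Ehd3 at 18.7, 26.6 and 21.4 CPM from 578, 1039 and 517 UMIs.

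The fatty acid-binding proteins were shared differently. Fabp4 reached 501, 469 and 310.3 CPM in tumor fibroblasts, beside only 34.0, 18.8 and 29.8 CPM of Plvap, so that fibroblasts held at least 10.4 Fabp4 UMIs per Plvap UMI in each library against 1.64, 1.68 and 1.85 in endothelial cells. In the 60 min tumor library granulocytes came next to endothelial cells, with 602 CPM of Fabp4 beside 187 CPM of Plvap. No kept cell of any library reached 3 UMIs of the adipocyte genes Adipoq, Plin1 and Cidec. Tumor Fabp5 was not endothelial by the 2-fold line: fibroblasts held 294, 225 and 142 CPM, macrophages 230, 182 and 207 CPM and epithelial cells 169.8, 113 and 163 CPM, and the granulocytes of the 60 min library 387 CPM. In kidney Fabp5 was 5.34 to 33.4 times the closest other type.

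Cd36 showed the reverse. Tumor endothelial cells held 4.91 to 8.90 times the Cd36 level of the closest other type, whereas in kidney macrophages (158, 178 and 154 CPM) and proximal tubule cells (103, 147 and 83.2 CPM) were close to endothelial cells (175, 161 and 272 CPM). In the tumor, macrophages held 12.2, 8.47 and 8.25 CPM.

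**Figure D2:**
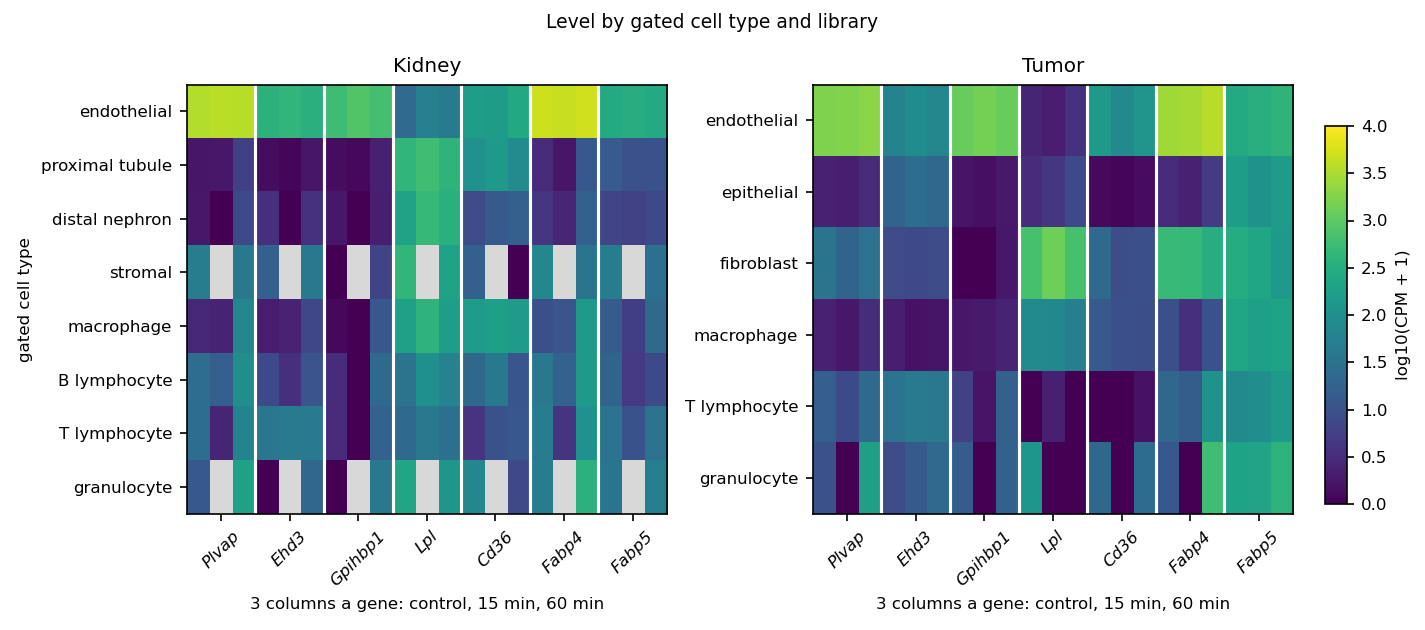
Level of each gene as log10(CPM + 1) in each gated type (rows), with 3 columns a gene for the control, the 15 min and the 60 min library, in kidney and tumor. Grey marks a type with under 20 cells in that library, and tumor pericytes and B lymphocytes, under 20 cells in every library, are not drawn. Lighter colour is a higher level. Plvap, Gpihbp1 and Fabp4 are lightest in the endothelial row, and Lpl in the nephron, macrophage, stromal and fibroblast rows.

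Lpl and its capillary anchor were found in different cells. In kidney the lipase transcript was at 429.9, 591 and 400.4 CPM in proximal tubule cells, at 198, 474 and 346 CPM in distal nephron cells and at 192, 401 and 165 CPM in macrophages. Kidney stromal cells held 435 CPM in the control, from 55 UMIs in 20 cells, and 36 UMIs in 30 cells at 60 min. In the tumor Lpl was at 680.4, 1315 and 683 CPM in fibroblasts and at 81.3, 72.0 and 52.6 CPM in macrophages. Gpihbp1 in the same fibroblasts came to 0, 0 and 3 UMIs, where 0 counts allow up to 7.29 CPM in the control and 4.02 CPM at 15 min.

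The Lpl UMIs of kidney endothelial cells lay mostly in cells that carried the markers of another gated type. Such cells numbered 29 of 568, 35 of 393 and 168 of 2457 and held 60.3, 82.4 and 57.8% of the Lpl UMIs, but 5.68, 7.78 and 7.36% of the Gpihbp1 UMIs. Without them Lpl was at 10.2 CPM (95% interval 6.46 to 15.3) in the control, 11.2 CPM (6.27 to 18.5) at 15 min and between 17.2 and 23.1 CPM, from 181 UMIs, at 60 min.

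Relative to proximal tubule cells, the whole endothelial gate held 5.59, 9.06 and 10.6% of the Lpl level. For 7 genes of the proximal tubule (Slc34a1, Lrp2, Slc5a12, Kap, Miox, Gpx3 and Slc27a2) that share was 3.12 to 5.80% in the control, 7.16 to 12.3% at 15 min and 2.84 to 6.06% at 60 min. Lpl thus lay within the range of the tubule genes in the control and the 15 min library and above it at 60 min. Distal nephron cells and macrophages also held Lpl in every kidney library. Without the cells that carried other markers, the tubule genes fell to 1.59 to 2.99, 1.07 to 3.51 and 1.55 to 3.43%, and Lpl to 2.37, 1.90 and 4.99%. Cd36 stood apart from them, at 169.5, 109.8 and 327% of the proximal tubule level with all endothelial cells and at 167, 106 and 339% without these cells. Whether the Lpl reads came from doublets, released RNA or endothelial cells was not tested.

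**Figure D3:**
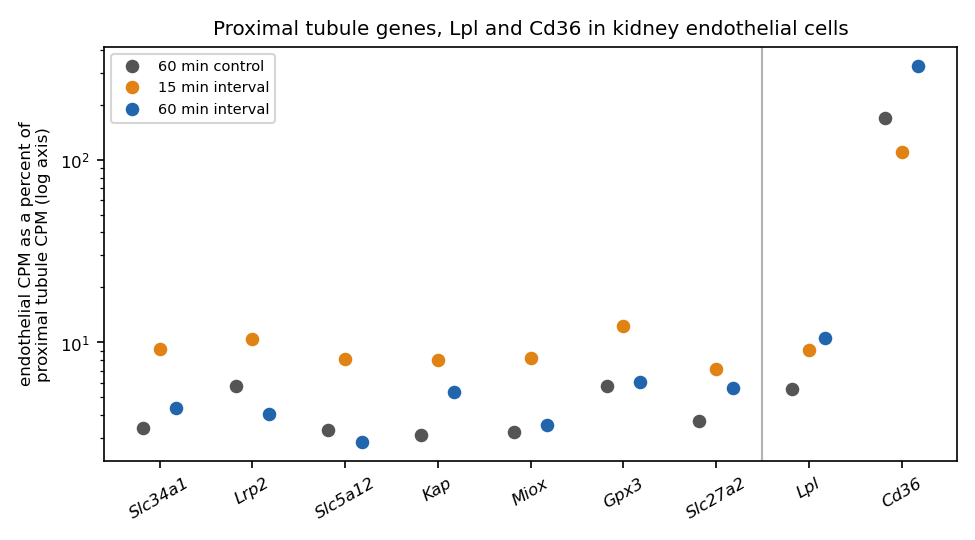
Endothelial CPM as a percent of proximal tubule CPM (log axis) for 7 proximal tubule genes, Lpl and Cd36 in the 3 kidney libraries. Lpl lies at 5.59 to 10.6%, near the tubule genes, while Cd36 lies at 109.8 to 327%.

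Platform and control libraries were then compared within each tissue, the question the series was made for. In kidney, the 15 min interval differed at least 2-fold from the control at 7.13% of 9783 genes with at least 20 UMIs and at 1 of the 7 genes. That gene was Lpl, at 2.23 times (1.58 to 3.17) the control level. The call was lost without the cells that carried another type's markers, with a log2 ratio of 0.13, and the proximal tubule markers in the gate were also higher in this library (501 against 131 CPM). The 60 min interval differed from the control at 6.10% of 11821 genes and from the 15 min interval at 9.45% of 11754 genes, and in both at none of the 7.

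Differences under 2-fold in kidney were still wider than their counting error for several genes. Gpihbp1 was 1.45 times (1.34 to 1.56) the control level at 15 min and 1.15 times (1.09 to 1.22) at 60 min. The proximal tubule markers had the same order (131, 501 and 183 CPM), and proximal tubule cells held 0.216 CPM of Gpihbp1 at 15 min. Without the cells carrying other markers the 15 min ratio was log2 0.65, against log2 0.54 with them. Whether tubule RNA had a part in the Gpihbp1 ratio was not tested. Cells marked by Igf1, described below, held less Gpihbp1 and numbered 65 of 568, 13 of 393 and 311 of 2457. Cells marked by none of the subset lists held 688, 858 and 736 CPM of Gpihbp1. Whether the make-up by subset had a part was not tested. Cd36 was 1.56 times (1.41 to 1.73) the control level at 60 min and 0.923 times (0.787 to 1.08) at 15 min. Subtracting the whole proximal tubule level of Cd36 left 71.7, 14.4 and 189 CPM, which put all 3 kidney contrasts of Cd36 past 2-fold. The 7 tubule genes stood in the gate at only 2.84 to 12.3% of their tubule level, so this subtraction took out more than their share. Plvap, Ehd3, Fabp4 and Fabp5 stayed between 0.828 and 1.16 times in the 3 contrasts. The median of all tested genes was shifted by 0.12 on the log2 scale at 15 min against the control and by -0.11 at 60 min against 15 min, and the Plvap contrast of 60 against 15 min (0.969 times) changed direction when this shift was taken out (log2 0.07).

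In the tumor, 5.42% of 9573 genes differed at least 2-fold between the 15 min interval and the control, 6.22% of 10833 between the 60 min interval and the control, and 8.32% of 10842 between the intervals. Among the 7 genes the counts were 0, 0 and 1. The call was Lpl between the intervals, at 18 against 2 UMIs and 2.67 times (0.640 to 23.8), an interval that spans 1. Cd36 came closest otherwise: 261, 150 and 824 UMIs placed the 15 min interval at 0.528 times (0.429 to 0.648) the control and the 60 min interval at 0.862 times (0.749 to 0.994). Epithelial markers in the gate were also lower at 15 min (268 against 767 CPM), and without the cells carrying other markers the first ratio was log2 -0.85 against log2 -0.92 with them. Whether epithelial RNA had a part was not tested. With the median shift of all genes (0.11 on the log2 scale, and -0.21 between the intervals) taken out, the Cd36 ratio of 15 min to control passed 2-fold.

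Fabp4 and Fabp5 were higher together in the tumor at 60 min, at 1.37 times (1.33 to 1.41) and 1.41 times (1.28 to 1.55) the control level. Epithelial markers in the gate were lower in that library (344 against 767 CPM). With the whole epithelial level subtracted, Fabp5 passed 2-fold (log2 1.07) and Fabp4 kept its ratio (log2 0.45). In the gate, 6 epithelial genes stood at only 7.31 to 8.89% of their epithelial level in the control and 5.20 to 6.40% at 60 min. Gpihbp1 was 1.23 times (1.16 to 1.30) the control level at 15 min and 0.995 times (0.948 to 1.04) at 60 min, the latter turning to log2 0.09 under scaling by the median of all genes, which was shifted by -0.10. In both tissues, then, Gpihbp1 was highest in the 15 min library, and Cd36 lowest in it. For kidney Cd36 the gap to the control was within counting error (0.923 times, 0.787 to 1.08). Kidney endothelial cells marked by none of the subset lists described next held 164 CPM of Cd36 in the control and 181 CPM at 15 min. The epithelial markers in the tumor gate were lowest in the 15 min library and highest in the control.

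The genes also varied among endothelial cells of 1 library. Cells with at least 2 UMIs of a marker list were set against cells with none of the lists at that level. In kidney, the Igf1 cells (65, 13 and 311) held more Plvap and less Gpihbp1 than unmarked cells of their library. Plvap was at 5139, 7434 and 5672 CPM against 3416, 3885 and 3640.2 CPM. Gpihbp1 was 0.101 (0.0604 to 0.158), 0.641 (0.404 to 0.968) and 0.325 (0.288 to 0.365) times the unmarked level. Cd36 was 1.73, 1.32 and 1.61 times that level, with an interval at 15 min (0.622 to 2.48) that spans 1, and Fabp4 0.680, 0.704 and 0.831 times. Kdr, the main VEGF receptor, was at 551, 1195 and 677 CPM in these cells and at 1765, 2005 and 1696 CPM in unmarked ones.

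Kidney cells were also marked by Gja4, Gja5, Sox17 and Bmx, genes of arterial endothelium. Sox17 was found in 25.5% of kidney endothelial cells, against 6.44% for Gja4, 1.26% for Gja5 and 0.761% for Bmx. The list thus rested mostly on Sox17 in kidney. The marked cells held 0.654, 0.595 and 0.547 times the unmarked Plvap level, the lowest of the groups marked by 1 list in every library. Their Fabp4 was 0.915 times the unmarked level in the control but 1.46 and 1.40 times in the intervals. A list for glomerular endothelium (Sost, Plat, Gata5 and Tbx3) could not be used under that name, since Sost was found in 0.234% of endothelial cells, Gata5 in none and Plat in 46.2%. The cells it marked held Plvap at 0.999, 1.01 and 0.945 times and Ehd3 at 0.974, 0.902 and 1.08 times the unmarked level. Plvap was high whether or not a cell had Ehd3 UMIs, and somewhat lower where it had none. Kidney endothelial cells with 2 or more Ehd3 UMIs held 3581, 3890.2 and 3855 CPM of Plvap, and those with none held 3071, 3668 and 3280.0 CPM. Cells with no Plvap UMI numbered 17, 4 and 52 and held Ehd3 at 56.8, 0 and 123 CPM (4, 0 and 23 UMIs), against 382, 423 and 353 CPM in the others. The lower level was not particular to Ehd3. Kdr was at 114, 148 and 401 CPM in these cells against 1558, 1989 and 1506 CPM. Fabp4 was at 2753, 1927 and 2449 CPM against 4959, 4491 and 5239 CPM. Plat was not lower, at 241, 445 and 492 CPM against 225, 211 and 213 CPM.

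In the tumor, the lipase anchor separated the marked groups most. Cells marked by Apln, Esm1 and Angpt2, genes of endothelial tip cells, held Gpihbp1 at 2157, 2122 and 1902 CPM (26, 58 and 65 cells). Cells marked by Selp, Ackr1 and Vwf, genes of venous endothelium, held 546, 425 and 511 CPM (46, 36 and 186 cells). Against unmarked cells these were 2.13, 1.51 and 1.41 times and 0.539, 0.302 and 0.380 times. Fabp4 was at 4369.9, 4686 and 4616 CPM in the first group and 2232, 1879 and 2939.7 CPM in the second, and Fabp5 at 339.9, 525 and 544 CPM and at 229.8, 137 and 214 CPM. Plvap was above the unmarked level in both groups in every library, by 1.24 to 1.78 times and by 1.25 to 1.55 times. Unmarked tumor cells were shallower, with a median of 5330 UMIs over the 3 libraries against 8319 and 8321.5 UMIs in these groups.

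**Figure D4:**
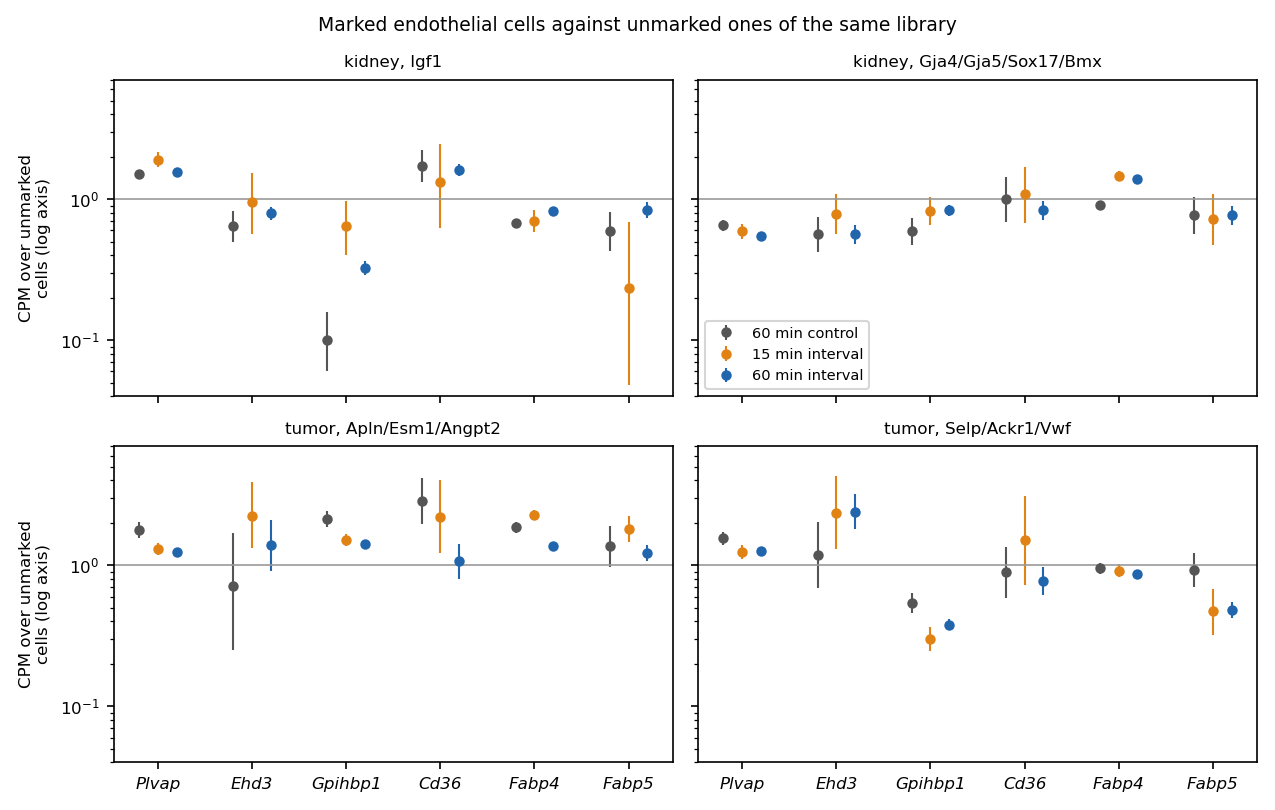
CPM in marked endothelial cells over CPM in unmarked endothelial cells of the same library (log axis), for 6 genes and 4 marker lists. Bars are 95% intervals for counting error and the line marks a ratio of 1. Gpihbp1 lies under 1 in the Igf1 cells of kidney and the Selp, Ackr1 and Vwf cells of the tumor in all 3 libraries, and over 1 in the Apln, Esm1 and Angpt2 cells.

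Over single cells of a library with at least 1000 UMIs, Pearson correlations of log-normalized values were computed as a description. The cells of a library share its depth and background. Gpihbp1 and Fabp4 had r of 0.44, 0.45 and 0.42 in kidney and 0.35, 0.36 and 0.37 in the tumor. Fabp4 and Fabp5 had r of 0.36, 0.20 and 0.34 in kidney and 0.49, 0.56 and 0.61 in the tumor. Cd36 and Fabp4 reached 0.38, 0.38 and 0.46 in the tumor but 0.13, 0.02 and 0.15 in kidney, and Plvap and Gpihbp1 0.31, 0.25 and 0.23 in the tumor but -0.03, 0.01 and -0.12 in kidney. Ehd3 stayed between -0.05 and 0.03 with Fabp4. Correlations this low in sparse counts describe the libraries only.

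**Figure D5:**
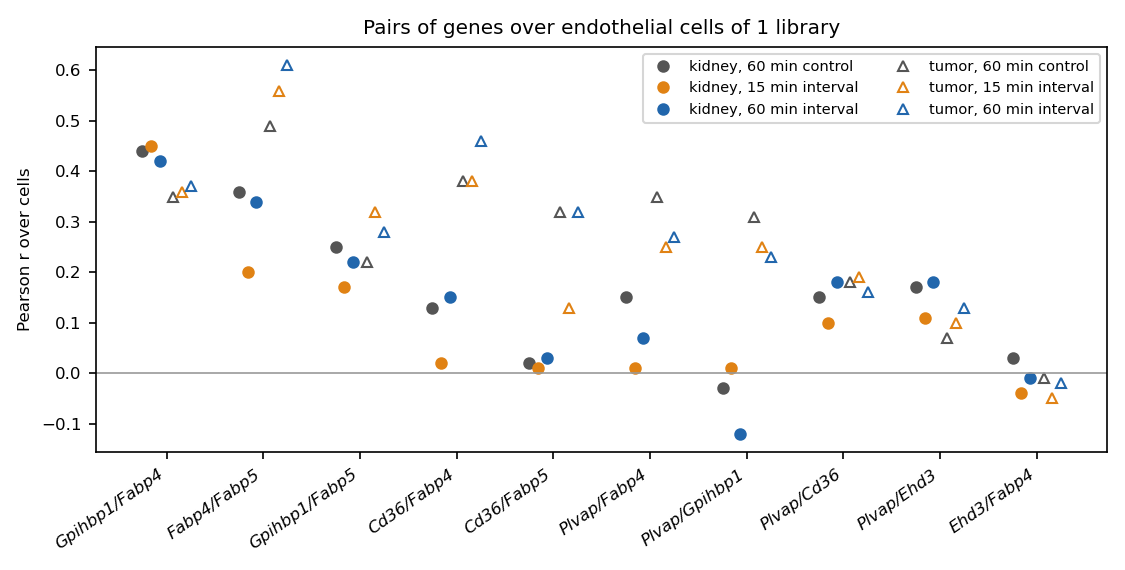
Pearson r over endothelial cells of 1 library for 10 pairs of the genes. Filled circles are kidney and open triangles tumor, with colours for the condition. Pairs of Cd36 or Plvap with Fabp4 and of Plvap with Gpihbp1 lie higher in the tumor.

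Across 40 groups of tissue, library and gated type, other genes were ranked by their correlation with each of the 7. The groups share libraries and the endothelial gate, so that r describes a shared pattern over cell types. Nearest to Plvap were Emcn (0.978), which is part of the gate, Ptprb (0.943) and Clec14a (0.938). Nearest to Gpihbp1 were Arhgef15 (0.974), Robo4 (0.973) and Cdh5 (0.969), also part of the gate, and nearest to Fabp4 were Eng (0.931), Flt1 (0.928) and Tek (0.924). Ehd3 had lower values, with Chst2 (0.880), Stim2 (0.847) and Nck1 (0.846). Cd36 was nearest to Tmem252 (0.765), Chst7 (0.729) and Rgl1 (0.728), and Fabp5 to Carhsp1 (0.834), Mapk3 (0.829) and Gnb2 (0.829). Lpl was nearest to Pth1r (0.824), Gpx3 (0.820) and Eps8 (0.793), and it had r of -0.397 with Gpihbp1, where Plvap and Gpihbp1 had 0.903.

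Of 62 other genes of lipolysis, fatty acid uptake, their regulators, caveolae and VEGF reception, those with enough UMIs were counted against the 2-fold line in the same contrasts. In kidney endothelial cells 2 of 45 were higher and 1 lower at 15 min than in the control, where 7.13% of all genes were called, 1 of 49 was higher at 60 min (6.10% of all genes) and 2 of 49 were higher at 60 min than at 15 min (9.45%). In the tumor 2 of 45 were higher at 15 min (5.42%), 1 of 48 was higher at 60 min (6.22%) and 1 of 48 was lower at 60 min than at 15 min (8.32%).

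Among 16 lipolysis genes, Angptl4, an inhibitor of lipoprotein lipase, was the exception in the tumor. It was at 12.6 CPM in the control and 31.2 CPM at 15 min in tumor endothelial cells (23 and 62 UMIs, and 335 UMIs at 60 min), or 2.48 times (1.51 to 4.19) the control level at 15 min and 3.98 times (2.61 to 6.36) at 60 min. It was past 2-fold in the same direction in both intervals, and fibroblasts held 112, 76.3 and 184 CPM. In kidney endothelial cells it was at 3.31, 3.15 and 6.40 CPM. Mgll, the monoglyceride lipase, was at 298, 412 and 309.6 CPM in kidney and 219, 267 and 231 CPM in tumor endothelial cells, and was 2-fold above every other gated type in both tissues. Apoe, of lipoproteins, was at 997 CPM in endothelial cells and 7218 CPM in macrophages of the kidney control, and at 740.5 and 40891 CPM in those of the tumor control. Pnpla2, the adipose triglyceride lipase, stood at 60.9, 75.6 and 65.5 CPM in kidney and 36.6, 45.7 and 49.9 CPM in tumor endothelial cells.

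Of the 17 uptake and activation genes, Scarb1, the HDL receptor, was endothelial in both tissues, at 79.9, 95.1 and 101 CPM in kidney and 187, 174 and 208 CPM in the tumor. Plin2, a lipid droplet protein, was at 93.6, 113 and 102 CPM in kidney and 89.7, 88.0 and 107 CPM in tumor endothelial cells, below another gated type in every library. Acsl5, an acyl-CoA synthetase, was at 55.5, 92.6 and 71.9 CPM and at 73.3, 75.9 and 62.1 CPM. In kidney Slc27a2 and Slc27a4 were past 2-fold at 15 min. Slc27a2 is one of the proximal tubule genes above, at 33.5 CPM in the control, 90.1 CPM at 15 min and 1259 CPM in the 15 min tubule cells.

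Of 12 regulators, Klf4, a flow-responsive transcription factor, was the gene that was lower in kidney at 15 min, at 0.449 times (0.413 to 0.488) the control level, with 1026, 461 and 935 CPM, beside the higher tubule markers of that library, whose part was not tested. Klf2, of the same family, was at 2635, 2052 and 2165 CPM in kidney and 961, 1265 and 1477 CPM in tumor endothelial cells, and Nrp1, a VEGF co-receptor, at 1098, 1346 and 1162 CPM and 492, 637 and 348 CPM. Tcf15, a transcription factor of capillary endothelium chosen here after its values were seen, was at 90.7, 60.5 and 92.1 CPM in kidney and 6.56, 6.03 and 9.26 CPM in tumor endothelial cells. Of 13 caveolar and EHD genes, 11 or 12 had enough UMIs in a contrast and none of these passed 2-fold, nor did the 4 VEGF receptor genes, in contrasts where 5.42 to 9.45% of all genes were called. Cav3 had at most 2 UMIs in a library. Ehd4, a paralog of Ehd3, was at 1108, 1113 and 1091 CPM in kidney and 310.1, 435 and 361 CPM in tumor endothelial cells. Aqp1, the water channel, was higher in the tumor (704, 1049 and 1067 CPM) than in kidney (204, 198 and 194 CPM), and Cavin3 was at 539, 611 and 492 CPM in kidney and 765, 997 and 906 CPM in the tumor. Kdr and Flt1 were at 1485 to 1981 and 2046 to 2148 CPM in kidney and at 470.3 to 795 and 681 to 1022 CPM in tumor endothelial cells, and Nrp2 at 211 to 234 CPM and 214 to 244 CPM.

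The genes lie apart on mm10 except for one pair. Fabp5 (chromosome 3, 10012548 to 10016607) and Fabp4 (chromosome 3, 10204088 to 10208576) are 187 kb from each other. Plvap (71497765 to 71511752) and Lpl (68880491 to 68907448) are on chromosome 8, Ehd3 on chromosome 17 (73804134 to 73832094), Gpihbp1 on chromosome 15 (75596628 to 75599481) and Cd36 on chromosome 5 (17781690 to 17888801).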

How the data were processed

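Single-cell libraries of mouse kidney and MMTV-PyMT mammary tumor were made with droplet chemistry, 3 per tissue. The authors made the UMI counts with Cell Ranger 3.1.0 (submitters' processing notes) on mm10, evened out depth between the libraries of a tissue by its aggregation step, and deposited whole-number counts per gene for the called cells, before the limits on genes and mitochondrial UMIs. The step discards reads of the deeper libraries, so the deposited totals understate their depth. Cells with 200 to 3000 (kidney) or 4000 (tumor) genes and up to 50% or 25% mitochondrial UMIs were kept, and the gene limit was the only step against doublets. Other types were gated on at least 3 UMIs of their markers, and cells passing several gates (130 and 154) or none (3483 and 1686) were left out of them.

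UMIs were summed per gate and library, with scipy 1.17.1. A gene was compared with at least 20 UMIs over both sums (in the endothelial sum of each library for the comparison of types). A 2-fold line stood in for a test, with 1 library per condition. Code was tested on simulated data. All 7 genes were described. From each list of other genes, the 3 most abundant in endothelial cells were named, with those past 2-fold in the same direction in both intervals. The genes, lists and gates were chosen with earlier results of these data known. Gene positions are from GENCODE M21. Alternatives covered the gate, cell limits, doubtful cells, scaling, subtraction of the whole tubule or epithelial level, the UMI minimum and the thinning depth.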

Additional observations from a re-analysis of the deposited data

Results flagged for a closer look

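Changes between libraries went opposite ways in the tissues for 4 genes, with the counting intervals of both ratios on opposite sides of 1. The share of all genes that met the same rule was not counted, so the 4 are a description of the list. The difference between tissues was not tested, since each tissue gave 1 library per condition. Cd36 at 60 min against the control was 1.56 times in kidney and 0.862 times in the tumor. Fabp4 at 15 min against the control was 0.915 times in kidney and 1.07 times in the tumor. Between the 60 and the 15 min interval, Plvap was 0.969 times in kidney and 1.16 times in the tumor, and Fabp5 0.896 times and 1.18 times. Scaling by the median ratio turned the kidney Plvap ratio (log2 0.07) and the tumor Fabp4 ratio (log2 -0.01). The mean over cells turned the tumor Cd36 ratio (log2 0.04). No group held 4 or more libraries, so no library could be called an outlier.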

How the results depend on the processing

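The counts of genes 2-fold above every other type (5 in kidney, 4 in the tumor) named the same genes under each of the 6 alternatives run for them. Counts between conditions rested on Lpl. In kidney at 15 min against the control the count went from 1 to 0 without cell limits, with mean CPM over cells and without cells carrying other markers, and with tubule levels subtracted it was 1 again but named Cd36. In the tumor between the intervals it went from 1 to 0 without those cells, with epithelial levels subtracted and with the gate on Egfl7, Esam and Cldn5, where the Lpl ratio turned to log2 -0.25; without those cells the ratio was larger (log2 2.17) but on 15 and 1 UMIs, under the minimum. In the tumor at 60 min against the control it went from 0 to 1 without cell limits and with mean CPM (Lpl) and with subtraction (Fabp5), and at 15 min against the control from 0 to 1 with median scaling (Cd36). In kidney at 60 min, subtraction moved it from 0 to 1 against the control and against 15 min (Cd36). Between tissues it went from 2 to 1 without those cells, where Lpl kept log2 ratios of 2.96 to 4.30 and missed only the UMI minimum, and with subtraction, and mean CPM gave 3 (Plvap added). The cause was not tested. Subtraction took out the whole tubule or epithelial level. Lpl was higher in those cells in every library, so it was put at 0 and had no ratio there. Thinning to 500 UMIs lowered shares, as fewer molecules are drawn. No paired analysis was possible because each group has 1 library, and none could be left out. The depth limits Lpl in the tumor most.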

Other observations

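Endothelial cells marked by Prox1, Lyve1 and Reln, genes of lymphatic endothelium, were too few for the report, with 5 cells in each 60 min library and none elsewhere. They held 1099 CPM of Fabp4 (31 UMIs) and 70.9 CPM of Gpihbp1 (2 UMIs) in kidney and 44.7 CPM of each (2 UMIs each) in the tumor. Plvap was at 3014 and 895 CPM (85 and 40 UMIs). Lyve1 had no UMI in kidney endothelial cells, so the kidney cells were marked by Prox1 and Reln alone.

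Cells that passed no gate held little Plvap, at 0.187 to 2.62% of the endothelial level in kidney and 0.991 to 2.94% in the tumor. Their Cd36 stood at 29.5, 37.6 and 21.4% of the endothelial level in kidney and at 9.27, 33.9 and 22.3% in the tumor. Kidney Lpl in ungated cells was above the endothelial level, at 371, 324 and 197%. Fabp5 in the ungated tumor cells stood at 142, 129.6 and 48.8% of the endothelial level.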
